A study of Mus musculus with 2 samples.

Results

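Alk, anaplastic lymphoma kinase, was examined together with 6 genes of its ligand and receptor system in mouse CIC::DUX4 sarcoma by single-nucleus RNA sequencing. The 7 genes were chosen by symbol among the 19059 genes of the count matrices, and all 7 were present: the receptor kinases Alk and Ltk, their ligands Alkal1 and Alkal2, the growth factors Mdk (midkine) and Ptn (pleiotrophin), and Ptprz1, a receptor phosphatase. They were selected on their levels per tumor and per cell class in these same data, so those levels and the differences between groups are given below as a description.

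The tumors came from dFLEx CDS mice (genotype dFLEx CDS +/- for the untreated tumors, zygosity not labelled for the Minnelide tumors), in which a CIC::DUX4 cassette under the CAG promoter is turned on only after both Cre and FLP recombination, here after the hind limb was electroporated with a pCAG-Cre and a pCAG-FLPE plasmid. Of 8 tumors, 4 were untreated and 4 came from mice given Minnelide, a water-soluble prodrug of triptolide, at 0.42 mg/kg daily for 21 days. Both groups carried the dFLEx CDS allele, and because the plasmids reach any electroporated cell, the cell of origin is not defined by a promoter. Each group was deposited as 1 sample with a matrix per tumor, the tumor numbers used here only name the matrices, and neither sex nor batch is given. The authors made the libraries with on-chip multiplexing, and which tumors shared a reaction is not stated. Whether each group was a separate reaction was not tested. Differences between the groups below therefore cannot be told apart from differences of library reaction or batch. Total depth ranged from 18487409 to 73211599 UMIs per tumor (a UMI marks 1 captured molecule). Same-numbered untreated and Minnelide tumors shared 49 to 132 cell barcodes, and the other pairs, all pairs within a group among them, shared none. These nuclei were kept, and leaving them out (710 nuclei) changed the levels of Alk, Ptn, Mdk and Ptprz1 over all deposited nuclei by -1.47% to 1.36% in any tumor.

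ALK, a receptor tyrosine kinase of the developing nervous system, and its closest relative LTK share activating ligands, the small secreted proteins ALKAL1 and ALKAL2. Midkine and pleiotrophin are heparin-binding growth factors of the embryo. They signal largely by binding the chondroitin sulfate chains of PTPRZ1, which lowers its phosphatase activity. Both have been discussed as indirect activators of ALK. ALK itself is a known oncogene in lymphoma, lung cancer and neuroblastoma. The CIC part of the fusion is a DNA-binding repressor that the DUX4 part turns into an activator, and Etv1, Etv4, Etv5, Shc3 and Shc4 are among the genes this fusion is known to raise.

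Alk occupied chr17:72174200-72911622 on the minus strand of GRCm39 and spanned 737423 bases, against 116032 bases for Ptn and 2704 bases for Mdk. Nuclear libraries that count intronic reads favor long genes, so levels are compared between genes only per length. Ltk overlapped Itpka and Alkal2 overlapped Acp1, both counted genes, so UMIs of these pairs may be uncertain. Strand was not compared for these overlaps. The start-site windows of Alk, Ptn and Shc4 are shown because these genes had like patterns across tumors and classes (below). Each window holds 250 bases before and 50 after a RefSeq start on GRCm38.p6, another build than that of the counts, printed 5′ to 3′ on the strand of the gene, with capitals for the octamers bound by CIC.

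Alk, chr17:72604258-72604557, minus strand: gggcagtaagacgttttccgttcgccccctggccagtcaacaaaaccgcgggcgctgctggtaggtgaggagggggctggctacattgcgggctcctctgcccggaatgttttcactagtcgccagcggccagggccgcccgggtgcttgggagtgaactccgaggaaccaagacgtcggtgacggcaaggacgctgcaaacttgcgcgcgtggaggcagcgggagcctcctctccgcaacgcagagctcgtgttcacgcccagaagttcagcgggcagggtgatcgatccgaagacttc
Ptn, chr6:36810130-36810429, minus strand: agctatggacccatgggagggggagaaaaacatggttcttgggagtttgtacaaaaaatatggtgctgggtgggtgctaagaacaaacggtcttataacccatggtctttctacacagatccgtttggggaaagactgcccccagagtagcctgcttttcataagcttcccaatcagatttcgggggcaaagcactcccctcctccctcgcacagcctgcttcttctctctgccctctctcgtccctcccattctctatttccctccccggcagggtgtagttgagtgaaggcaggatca
Shc4, chr2:125724099-125724398, minus strand: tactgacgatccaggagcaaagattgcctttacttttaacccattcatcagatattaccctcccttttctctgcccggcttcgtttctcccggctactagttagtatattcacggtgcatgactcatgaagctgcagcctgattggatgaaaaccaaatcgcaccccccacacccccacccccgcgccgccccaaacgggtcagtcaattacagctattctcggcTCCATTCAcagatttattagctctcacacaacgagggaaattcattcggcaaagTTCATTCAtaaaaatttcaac

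The octamers searched were TGAATGAA, TGAATGGA, TCAATGAA and TCAATGGA on both strands, with overlapping matches each counted. They were found in 1260 of 32851 windows of this length (3.84%). The Shc4 window held 2, at positions 226 and 280 from its 5′ end, and no match was found in the windows of Alk, Ltk, Ptn, Ptprz1 or Alkal2. The windows of the fusion target genes Etv1 and Etv5 and of Spred2, Gpc3 and Hmga2 held none either. These letters were thus not in these 300 bases, and the rest of each locus was not searched. Mdk, Alkal1, Shc3 and Etv4 had no window in the set and were not searched at all.

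Alk gave many UMIs in every tumor, without correction for its length. Over all deposited nuclei its level was 469, 1250, 1088 and 1176 CPM (UMIs scaled to the total of the nuclei summed) in untreated tumors 1 to 4. It was 1923, 991, 2353 and 1033 CPM in Minnelide tumors 1 to 4. The groups overlapped, with a mean of 996 ± 357 CPM in untreated tumors and 1575 ± 674 CPM in Minnelide tumors (SD, n = 4 each). Untreated tumor 1 was the lowest of the 8 and Minnelide tumor 3 the highest.

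Ptn followed the same order at its extremes. Its level was 60.8, 494, 448 and 528 CPM in untreated tumors and 941, 337, 954 and 415 CPM in Minnelide tumors. Untreated tumor 1 stood far below the other 7, which ran from 337 to 954 CPM. Mdk was at 10.9, 45.1, 16.0 and 14.8 CPM in untreated tumors and 116, 45.6, 91.3 and 74.4 CPM in Minnelide tumors. Every Minnelide tumor was thus above every untreated tumor, by a margin of only 45.6 against 45.1 CPM at the edge, as held for 0.695% of 13811 genes.

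Ptprz1 was sparse, at 3.25, 13.4, 5.27 and 1.19 CPM in untreated tumors and 0.355, 1.07, 0.748 and 1.60 CPM in Minnelide tumors. The range of the groups overlapped through untreated tumor 4. The ALK ligand gene Alkal2 was also sparse, at 2.87, 0.635, 0.654 and 0.379 CPM in untreated tumors and 0.901, 1.75, 1.40 and 1.60 CPM in Minnelide tumors. Alkal1 had 74 UMIs in Minnelide tumor 4 (3.69 CPM) and at most 11 UMIs in any other tumor. Ltk had 15, 2, 1 and 1 UMIs in untreated tumors and 7, 0, 2 and 0 in Minnelide tumors, where 0 UMIs allows up to 0.0975 CPM in Minnelide tumor 2 and 0.150 CPM in Minnelide tumor 4. These floors cover counting error only, not the spread between tumors.

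**Figure D1:**
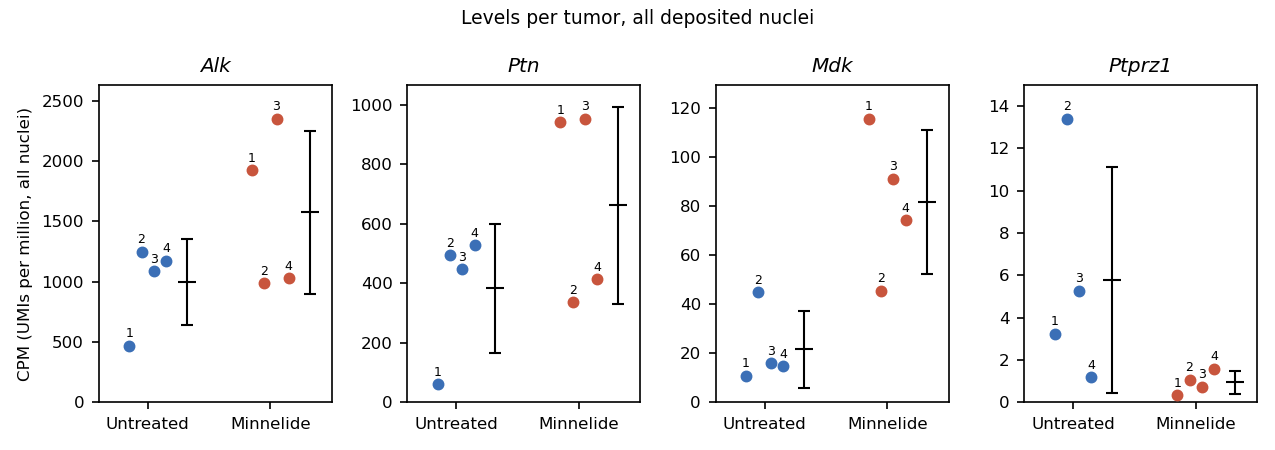
CPM of Alk, Ptn, Mdk and Ptprz1 over all deposited nuclei, 1 numbered point per tumor, with the mean and SD of each group of 4 as a bar. Untreated tumor 1 was lowest for Alk (469 CPM) and Ptn (60.8 CPM), and the Mdk values of the groups met at 45.1 and 45.6 CPM.

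The names of the Minnelide matrices carry the word responder for tumors 1 and 2 and nonresponder for tumors 3 and 4, which the sample labels do not give, so values are set side by side only. Alk was 1923 and 991 CPM in the former and 2353 and 1033 CPM in the latter. Each word thus covered a tumor of high and a tumor of low Alk, and for Ptn it did so too, with 941 and 337 CPM beside 954 and 415 CPM.

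After removal of damaged nuclei and predicted doublets, 59907 of 72338 nuclei were retained and formed 31 clusters. By marker genes these were 36886 tumor-like, 7192 fibroblast-like, 6716 myocyte-like, 3225 endothelial-like, 2185 macrophage-like, 981 pericyte-like and 769 osteoclast-like nuclei, and 1953 nuclei of an unnamed cluster led by Agbl1, Fgf13 and Dmd, 97.2% of them from Minnelide tumor 2. The 7 genes and all markers were left out of the clustering. All 8 tumor markers (Dusp4, Spred2, Vgf, Shc3, Shc4, Etv1, Etv4 and Etv5) were detected in the tumor-like nuclei of each tumor, with a summed level of 13311 to 17437 CPM in untreated and 14360 to 20564 CPM in Minnelide tumors. Detection alone did not set the class apart, because all 8 were also detected in every other named class. Their summed level reached 15106 CPM in macrophage-like and 14163 CPM in endothelial-like nuclei of Minnelide tumors. All 14 tumor-like clusters drew over 90% of their nuclei from 1 tumor.

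Alk was highest in tumor-like nuclei in 8 of 8 tumors. Its level there was 673, 1751, 1782 and 1598 CPM in untreated tumors and 2246, 1806, 2729 and 1213 CPM in Minnelide tumors, a mean of 1725 ± 618 (SD, n = 8), or 1875 CPM without untreated tumor 1. Macrophage-like nuclei came next at 924 ± 519 CPM, followed by pericyte-like (765 ± 438, n = 7), endothelial-like (680 ± 434), fibroblast-like (581 ± 366), osteoclast-like (517 ± 459) and myocyte-like nuclei (492 ± 455). From the second place down, each class lay above the next in only 4 to 6 of the 7 or 8 tumors compared, so their order is within the spread between tumors. The unnamed cluster of Minnelide tumor 2 held Alk at 1256 CPM. Tumor-like nuclei held 31.2% to 92.9% of the Alk UMIs of retained nuclei per tumor, against 17.4% to 83.0% of all UMIs. In each tumor the Alk share was the larger. Both shares were lowest in Minnelide tumor 2. In that tumor, tumor-like nuclei held 17.4% of all UMIs, and the unnamed cluster, in which 7 of 8 tumor markers were also raised, held 43.6% of all UMIs and 54.5% of the Alk UMIs.

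Within tumor-like nuclei, Alk also differed between clusters of 1 tumor. In untreated tumor 1, the larger clusters held it at 625 and 706 CPM, whereas a cluster of 112 nuclei, 96.4% of them from that tumor, reached 2540 CPM. The converse was a cluster of 126 endothelial-like nuclei, 95.2% of them from untreated tumor 2, with Alk at 1509 CPM and raised tumor markers. Untreated tumor 1 had the lowest summed tumor markers in tumor-like nuclei (13311 CPM) and the highest summed level of 10 endothelial markers there, at 3392 CPM against 451 to 853 CPM in the other 7 tumors. The part of either in its low Alk was not tested.

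Outside tumor-like nuclei, Alk was measured beside the 8 tumor markers. The median ratio of the Alk level to that in tumor-like nuclei of the same tumor was 0.514 in macrophage-like, 0.410 in endothelial-like, 0.369 in pericyte-like, 0.310 in fibroblast-like, 0.221 in osteoclast-like and 0.191 in myocyte-like nuclei. The median ratio over the 8 tumor markers was 0.569, 0.453, 0.489, 0.367, 0.288 and 0.234 in the same classes. The ratio of Alk was thus below the marker median in 6 of 6 classes, and below the lowest of the 8 markers in macrophage-like, endothelial-like, pericyte-like and osteoclast-like nuclei. The source of these UMIs was not tested.

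The share of nuclei with an Alk UMI was compared between tumor-like and macrophage-like nuclei. At a depth thinned to 1000 UMIs per nucleus, with 6591 of 36886 tumor-like and 191 of 2185 macrophage-like nuclei left out as shallower, an Alk UMI was found in 42.5% (untreated tumor 1) to 83.5% (Minnelide tumor 3) of tumor-like nuclei. In macrophage-like nuclei the share was 6.88% to 61.1%, lowest and highest in the same tumors. Without thinning the shares were 64.8% to 96.8% in tumor-like nuclei and 11.7% to 80.7% in macrophage-like nuclei, at median depths of 808 to 5048 and 1346.5 to 3428 UMIs.

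**Figure D2:**
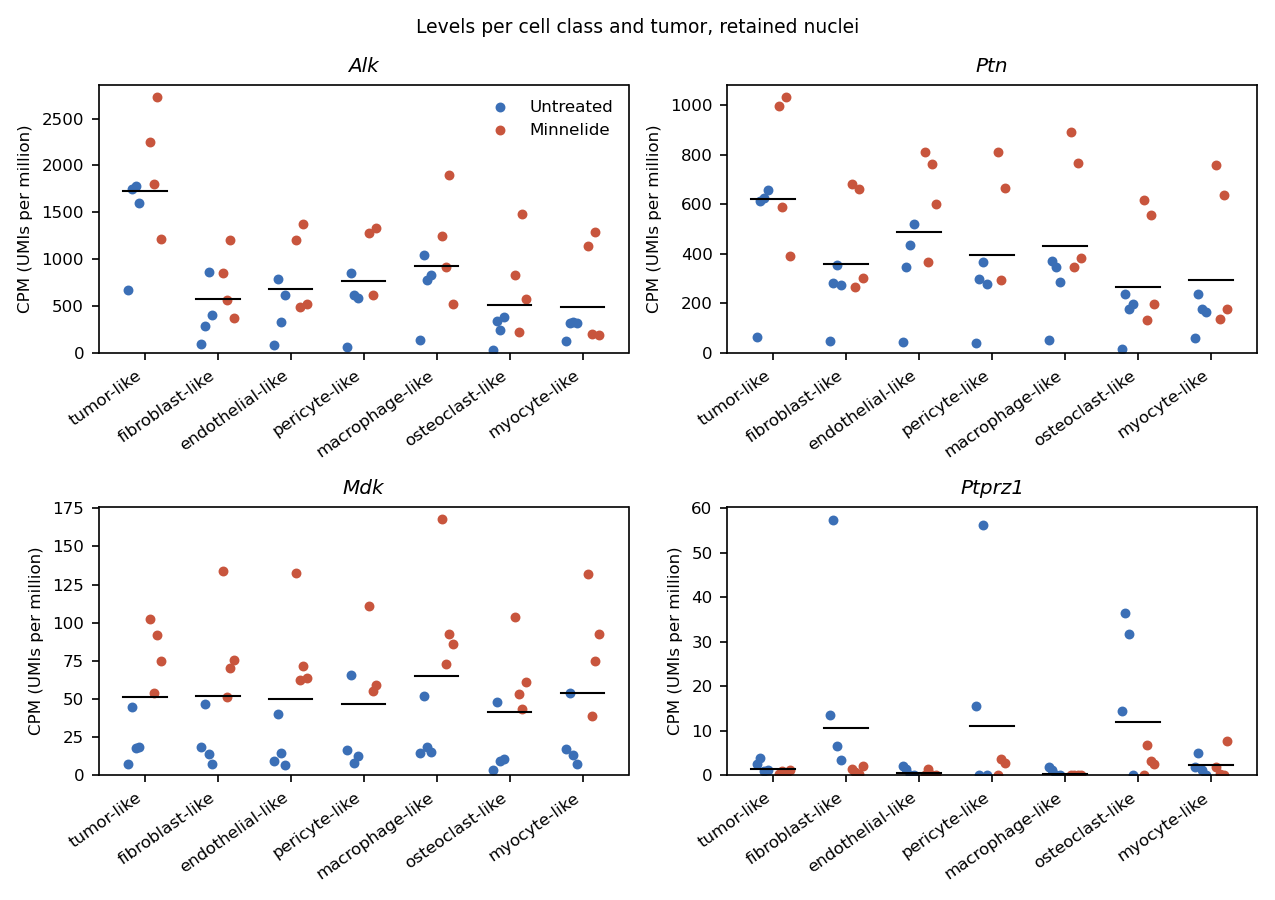
CPM of Alk, Ptn, Mdk and Ptprz1 by cell class, 1 point per tumor, with a line at the mean over tumors. Alk was highest in tumor-like nuclei (mean 1725 CPM), and Mdk had similar means in every class. In fibroblast-like, pericyte-like and osteoclast-like nuclei, the highest Ptprz1 values were of untreated tumors, though not of all of them.

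Ptn was less restricted to tumor-like nuclei than Alk. Its level there was 65.9, 611, 625 and 657 CPM in untreated tumors and 996, 590, 1032 and 393 CPM in Minnelide tumors, a mean of 621 ± 310 (SD, n = 8), or 701 CPM without untreated tumor 1. Endothelial-like nuclei came next at 486 ± 247 CPM, below tumor-like nuclei in 7 of 8 tumors. The median ratio to tumor-like nuclei was 0.720 in endothelial-like, 0.674 in macrophage-like and 0.604 in fibroblast-like nuclei, above the tumor-marker medians given for those classes. In each of the 6 classes, Ptn lay above Alk in this ratio.

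Averaged over tumors, Mdk had similar levels in every class. It was 7.56, 44.8, 18.2 and 18.5 CPM in tumor-like nuclei of untreated tumors and 102, 53.7, 92.2 and 75.1 CPM in those of Minnelide tumors. The class means ran from 41.7 CPM in osteoclast-like to 65.1 CPM in macrophage-like nuclei, with 51.6 ± 35.8 CPM in tumor-like nuclei (SD, n = 8). The median ratio to tumor-like nuclei ranged from 0.696 to 1.15. Single tumors varied more, from 0.364 in endothelial-like to 2.44 in fibroblast-like nuclei. Of the tumor markers, Vgf, a secreted neuropeptide precursor, was the closest to the Mdk medians, with median ratios of 0.590 to 0.978.

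**Figure D3:**
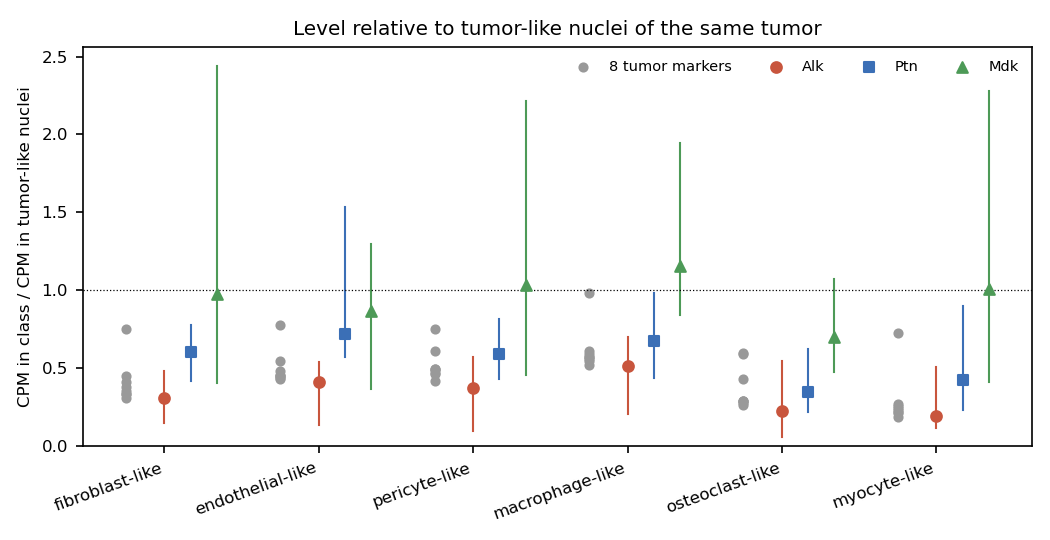
Level in each class divided by that in tumor-like nuclei of the same tumor. Colored symbols are medians over tumors with lines from the lowest to the highest tumor, and gray points are the medians of the 8 tumor markers. Alk lay near the lower edge of the markers, Ptn above most of them and Mdk near 1.

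Per length, the order of Alk, Ptn and Mdk in tumor-like nuclei depended on the length used. Per kilobase of exon, Alk stood at 181, Ptn at 82.3 and Mdk at 30.6 CPM. Per kilobase of gene span, Mdk stood at 19.1, Ptn at 5.36 and Alk at 2.34 CPM, the reverse order.

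Much of the Ptprz1 of untreated tumor 2 lay in a small group of nuclei. A cluster of 95 nuclei held it at 526 CPM, against 1.93 CPM in all other retained nuclei. Of these nuclei 66 came from untreated tumor 2, 24 from untreated tumor 3 and 5 from Minnelide tumor 4, and the cluster passed as fibroblast-like on 4 of 8 markers while its leading genes included Mmp16, Smpd3, Mamdc2 and Slc8a3. In untreated tumor 2, 16 of its nuclei held 172 of the 273 Ptprz1 UMIs of the tumor (63.0%), and 93 of these lay in 1 nucleus. In untreated tumor 3 the cluster held 30 of 131 UMIs, and in untreated tumor 1 it held 0 of 184, which were spread over 110 nuclei. Dmp1, a matrix protein of osteocytes, was also high in this cluster, at 272 CPM against 1.25 CPM in the rest.

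In fibroblast-like nuclei as a whole, Ptprz1 was 13.5, 57.4, 6.66 and 3.50 CPM in untreated tumors and 1.44, 0.735, 0.288 and 2.01 CPM in Minnelide tumors. Without the cluster these values were 13.5, 5.06, 3.46 and 3.50 CPM and 1.44, 0.735, 0.288 and 1.02 CPM. Every untreated tumor was above every Minnelide tumor either way, although the Minnelide values rested on 1 to 7 UMIs per tumor. Of all 11601 genes tested in fibroblast-like nuclei, 2.65% likewise had every Minnelide tumor below every untreated tumor.

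The ALK ligand genes gave few UMIs in tumor-like nuclei. Alkal2 was 3.06, 0.860, 0.754 and 0.566 CPM in untreated tumors and 0.945, 0.632, 1.27 and 1.95 CPM in Minnelide tumors, highest in untreated tumor 1, where Alk was lowest. Alkal1 had 61 UMIs (4.24 CPM) in tumor-like nuclei of Minnelide tumor 4 and 0 to 11 UMIs in those of the other 7 tumors. It was spread over both tumor-like clusters of that tumor, at 4.21 and 4.26 CPM.

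Detection of the growth factors in single tumor-like nuclei was compared between nuclei with and without an Alk UMI, at the thinned depth. Ptn was found in 8.34% of Alk-positive and 4.93% of Alk-negative nuclei of untreated tumor 1, and the shares in the other 7 tumors differed by less than 1 percentage point. In Minnelide tumor 1, for example, they were 65.5% and 66.0%. Mdk was found less often in Alk-positive nuclei in 6 of 8 tumors, with differences from -3.21 to 0.64 percentage points.

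Across the 53 sums of a tumor and a class with at least 50 nuclei, the patterns of Alk and Ptn were alike. Pearson's r of log2(CPM + 10) was 0.90 for Alk and Ptn, 0.57 for Alk and Mdk, and 0.66 for Mdk and Ptn. The points share tumors and libraries, so these values are a description. Without the 7 sums of untreated tumor 1, r was 0.84, 0.45 and 0.57. Among 11368 genes ranked, those most like Alk were Shc3 (0.98), Shc4 (0.98), Hmga2 (0.96), Etv5 (0.96) and Gpc3 (0.96), and Shc3, Shc4 and Etv5 are also among the markers that named the tumor-like nuclei. Shc3 and Shc4 encode adaptors of receptor tyrosine kinases, Hmga2 a chromatin protein of the embryo, Etv5 an ETS transcription factor and Gpc3 a cell-surface proteoglycan.

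The genes most like Ptn were Gpc3 (0.95), Col2a1 (0.95), a cartilage collagen, and Fat4 (0.93), a large cadherin. Those most like Mdk were Mfap2 (0.92), a microfibril protein, Vgf (0.85) and Cytl1 (0.85). For Ptprz1 the closest were Insc (0.72), Dmp1 (0.64) and Adamts14 (0.62), weaker likenesses in sparse counts.

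**Figure D4:**
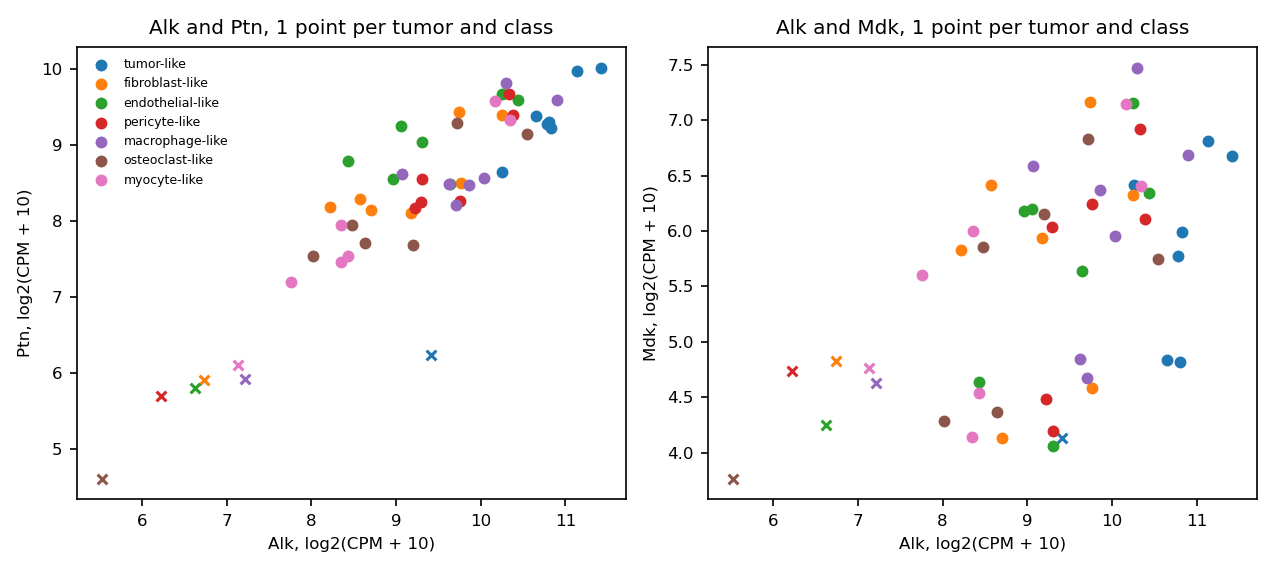
Alk on the horizontal axis against Ptn and Mdk, log2(CPM + 10), 1 point for each tumor and class with at least 50 nuclei, colored by class; crosses mark untreated tumor 1. Ptn rose with Alk across the points (r = 0.90), and Mdk did so less closely (r = 0.57).

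The Minnelide group was then set against the untreated group with counts summed per tumor, 4 against 4, by edgeR's quasi-likelihood test over all genes. None of the members was called at an adjusted p under 0.05, and neither was any other gene (0% of 13811 genes over all retained nuclei, 13016 in tumor-like and 11601 in fibroblast-like nuclei), with 1376, 1198 and 628 genes at an unadjusted p under 0.05. DESeq2, run as an alternative, called 181, 95 and 22 genes. Of the 7 members, 5 passed the filter on low counts over all retained and in tumor-like nuclei and 4 in fibroblast-like nuclei, with Ltk and Alkal1 below it throughout. Because the members were selected on these levels, their adjusted p-values are no independent test.

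Mdk had the largest positive log2 fold change of the members past the filter, 1.99 ± 0.51 over all retained nuclei, 1.96 ± 0.52 in tumor-like and 1.99 ± 0.52 in fibroblast-like nuclei (estimate ± SE, n = 4 per group; edgeR adjusted p 0.463, 0.531 and 0.891). With DESeq2 the adjusted p was 0.0209, 0.0386 and 0.0810, so that the first and second fall under 0.05 by that tool alone, as did 0.174% and 0.115% of all genes in this direction. All 4 Minnelide tumors were above all 4 untreated tumors in tumor-like nuclei, as held for 0.968% of all genes tested there, and in fibroblast-like nuclei, as held for 1.15%. Over all retained nuclei the groups overlapped, at 43.4 CPM in the lowest Minnelide and 45.7 CPM in the highest untreated tumor. Without untreated tumor 2, which had the highest Mdk of the untreated group, the values were 2.66 ± 0.37, 2.59 ± 0.43 and 2.66 ± 0.40 (edgeR adjusted p 0.528, 0.475 and 0.852). In each other named class the mean Mdk level was also higher with Minnelide. In macrophage-like nuclei, for example, it was 25.3 CPM in untreated and 105 CPM in Minnelide tumors. These classes were not tested, and all fits share the same tumors.

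Ptprz1 had the most negative value, -2.70 ± 0.79 over all retained nuclei, -1.61 ± 0.67 in tumor-like and -4.24 ± 1.02 in fibroblast-like nuclei (edgeR adjusted p 0.463, 0.531 and 0.891). Leaving out the cluster of 95 nuclei, an alternative chosen after seeing the data, changed the first to -1.96 ± 0.59 and the last to -2.75 ± 0.62. Leaving out untreated tumor 2 gave -1.89 ± 0.68, -1.06 ± 0.66 and -2.90 ± 0.63 in the same order (edgeR adjusted p 0.528, 0.589 and 0.995). DESeq2 called it over all retained nuclei (DESeq2 adjusted p 0.0382) and in fibroblast-like nuclei (0.0120), where 1.14% and 0.103% of all genes were called lower. Alk and Ptn had smaller positive values, 0.55 ± 0.40 and 0.69 ± 0.66 in tumor-like nuclei (edgeR adjusted p 0.659 and 0.738), within the spread between tumors, and 0.30 ± 0.26 and 0.33 ± 0.32 without untreated tumor 1. Alkal2 stood at 0.05 ± 0.57 (adjusted p 0.982), and its sign changed when single tumors were left out.

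**Figure D5:**
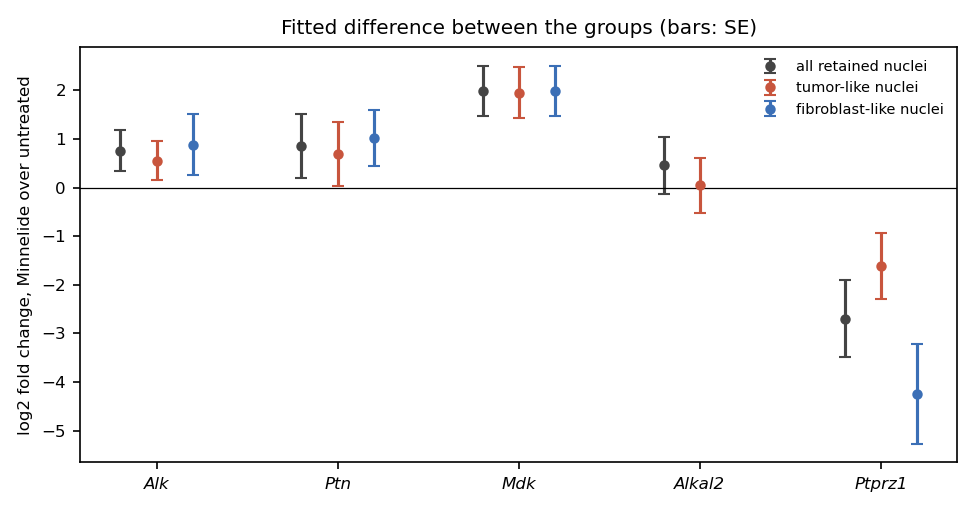
log2 fold change of Minnelide over untreated tumors (points) with SE (bars) for the members past the filter, in all retained, tumor-like and fibroblast-like nuclei. Mdk lay near 2 in all 3 fits and Ptprz1 below 0, and none was called by edgeR.

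Other genes of the pathway were tested in tumor-like nuclei from 3 lists, and none was called. Of 15 other receptors and coreceptors of midkine and pleiotrophin, all passed the filter and 11 had a higher and 4 a lower estimate, with a median log2 fold change of 0.13 against -0.003 over all genes tested. The highest was Gpc2, a glypican that binds midkine, at 0.70 ± 0.39 (edgeR adjusted p 0.581), and the lowest was Itga4, an integrin chain, at -1.47 ± 0.52 (adjusted p 0.531).

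Of 19 adaptors and effectors of ALK, all passed, 8 with a higher and 11 with a lower estimate and a median of -0.03. Irs1, an insulin receptor substrate that docks on ALK, was highest at 0.40 ± 0.57 (edgeR adjusted p 0.822), and Plcg2, a phospholipase of leukocytes, was lowest at -1.31 ± 0.67 (adjusted p 0.563). Of 9 binding partners and substrates of PTPRZ1, 8 passed, 4 with a higher and 4 with a lower estimate and a median of -0.02. Ncam1, a neural adhesion molecule, was highest at 0.53 ± 0.51 (adjusted p 0.736) and Nrcam, its relative, lowest at -1.37 ± 0.96 (adjusted p 0.646). In tumor-like nuclei 1, 2 and 0 genes of the 3 lists had an unadjusted edgeR p under 0.05, beside 1198 of all 13016 genes tested. The 2 ALK effectors, named after their values were seen, were Irs2 (-0.65 ± 0.21) and Stat3 (-0.49 ± 0.19; edgeR adjusted p 0.531 for both).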

How the data were processed

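Single-nucleus RNA from 4 untreated and 4 Minnelide-treated tumors was analysed. The deposited values are UMI counts per gene and nucleus; the authors made them with Cell Ranger, given as 7.0.1 in the submitters' processing notes and 9.0.1 in the matrix header, on mm39 with intronic reads included. The members and gene lists were chosen with earlier results of these data known.

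Nuclei were filtered with a 2-component mixture on mitochondrial share and genes detected (posterior threshold 0.75, at least 200 genes), doublets were removed with Scrublet at 0.8% per 1000 nuclei, and the rest were clustered in scanpy 1.11.5 (2000 variable genes, 30 components, 40 neighbors, Leiden resolution 1.0). A class needed at least 3 of its markers raised 1.5-fold. CPM is the UMI count scaled to the total of the nuclei summed. Per tumor and class, sums needed at least 20 nuclei. Group differences were fitted on summed counts with edgeR 4.0.16 (filterByExpr, TMM, quasi-likelihood, Benjamini-Hochberg over all genes) and, as an alternative, DESeq2 1.42.0, in R 4.3.3. The labels do not say that the matrices are separate animals beyond 4 tumors each. Other alternatives were size factors, no filter, each tumor left out, deeper nuclei, doublets kept and another resolution. The scripts were tested on simulated data. Named genes were all members, the highest and lowest gene of each list in tumor-like nuclei, and the 5 genes most like Alk and 3 most like Mdk, Ptn and Ptprz1. GENCODE M39 gave positions, and RefSeq the windows. Depth was 18487409 to 73211599 UMIs per tumor, which limits genes of a few UMIs.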

Additional observations from a re-analysis of the deposited data

Results flagged for a closer look

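Of 28 groups of 4 tumors examined for a tumor far from the others, 7 were flagged. Chance flags about 1 in 20, but each gene was examined over all deposited nuclei and again over tumor-like nuclei. The groups are not independent, so the count of 7 cannot be weighed against that rate. Untreated tumor 1 was set apart in tumor-like nuclei by low Alk (673 CPM, next 1598 CPM) and low Ptn (65.9 CPM, next 611 CPM), and by high Alkal2, at 2.87 CPM over all deposited nuclei and 3.06 CPM in tumor-like nuclei. Untreated tumor 2 was set apart by high Mdk over all deposited nuclei, 45.1 CPM against 16.0 CPM in the next tumor. Minnelide tumor 4 was set apart by Alkal1, at 3.69 CPM over all deposited nuclei and 4.24 CPM in tumor-like nuclei, against 0.0546 and 0.0335 CPM in the next tumor.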

How the results depend on the processing

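DESeq2 called 181 genes over all retained nuclei, 95 in tumor-like and 22 in fibroblast-like nuclei, where edgeR called 0. With it Mdk passed the threshold over all retained nuclei (log2 fold change 2.01) and in tumor-like nuclei (1.96), and Ptprz1 over all retained nuclei (-2.67) and in fibroblast-like nuclei (-4.25). Leaving out each tumor in turn gave 0 to 1 called genes over all retained nuclei, the 1 without Minnelide tumor 2, and 0 in the other fits. Alkal2 in tumor-like nuclei turned negative without untreated tumor 2 (-0.06), 3 (-0.09) or 4 (-0.17) or Minnelide tumor 4 (-0.27), in a range of -0.27 to 0.83 over the tumors left out. The sign of Alk, Ptn, Mdk and Ptprz1 was the same under every alternative run in each fit; the cause of the differences between tools was not tested. Of 532 class levels recomputed, 531 moved by at most 1 SD over tumors. Most of these left out 1 tumor, which by arithmetic cannot move a mean by more than 1 SD. That count is therefore little measure of stability. Ltk in endothelial-like nuclei moved from 0 to 0.0134 CPM at Leiden resolution 0.5. At that resolution, endothelial-like nuclei numbered 6641 in place of 3225, and 3955 of them formed 1 cluster, 99.5% from untreated tumor 1, in which tumor markers were also raised. Depth limits Ltk, Alkal1, Alkal2 and Ptprz1, which rest on few UMIs. No paired analysis was possible because the labels give no replicate numbers, and the tumor numbers are names only.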
